A study of Mus musculus with 5 samples.

Results

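Ankrd1 and Amotl1 are genes tied to the transcriptional coactivator YAP, and both were taken by symbol from tables of gene expression in fetal mouse limb muscle. The 2 genes were among the 4743 listed in each of the 5 libraries. The libraries came from muscle tissue of the forelimbs of C57BL/6 mouse embryos at stage E15.5. Of these, 3 were labelled Noggin-deficient and 2 were labelled as wild type controls. Noggin is a secreted antagonist of bone morphogenetic proteins (BMPs), and the title of the series names an unbalanced niche of BMP and mechanical signals around plastic myogenic cells. The labels describe the mutation no further, and they do not say whether a sample was a single embryo, a pool or a litter, so p-values reflect the spread of these samples alone, and that spread may be technical.

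YAP and its relative TAZ carry signals from cell shape, stretch and cell contact to the nucleus. The Hippo kinases (MST and LATS) phosphorylate them and keep them in the cytoplasm. Where they escape, they enter the nucleus and act through TEAD factors, which bind the DNA motif known in muscle genes as MCAT. Ankrd1, also called cardiac ankyrin repeat protein, is a widely used readout of YAP and TEAD activity. In striated muscle its protein sits on titin and also enters the nucleus, and its transcript is induced by stretch, injury and denervation. Amotl1 is a member of the angiomotin family, scaffolds of cell junctions and actin filaments that bind the WW domains of YAP and TAZ and can hold them outside the nucleus.

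The promoters of both genes are shown because a TEAD motif is the link between YAP and its targets. Each line gives the 250 bases before the RefSeq transcription start (build GRCm38.p6), 5′ to 3′ along the gene, with each TEAD motif match in capitals. The Ankrd1 sequence lies on the minus strand at chr19:36119845-36120094 and the Amotl1 sequence on the minus strand at chr9:14615001-14615250.
Ankrd1: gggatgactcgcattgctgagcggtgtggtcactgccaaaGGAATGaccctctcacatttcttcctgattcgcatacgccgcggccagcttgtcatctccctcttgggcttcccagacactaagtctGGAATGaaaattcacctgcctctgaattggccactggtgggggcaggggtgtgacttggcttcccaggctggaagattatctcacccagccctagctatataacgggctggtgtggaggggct
Amotl1: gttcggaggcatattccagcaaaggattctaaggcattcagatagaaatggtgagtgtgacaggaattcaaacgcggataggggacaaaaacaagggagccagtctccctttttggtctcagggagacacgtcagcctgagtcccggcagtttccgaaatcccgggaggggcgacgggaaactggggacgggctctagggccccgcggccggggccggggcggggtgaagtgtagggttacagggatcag

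The Ankrd1 window held 2 matches to GGAATG, the core of the TEAD motif, starting at -210 and -123 from the transcription start. Both strands were searched (GGAATG and CATTCC). At least 1 match was present in 12.6% of 32851 promoter windows of the same length, and 2 or more in 1.02%. The Amotl1 window held 0 matches. Of the other YAP targets with values, Nuak2 had no window to search. Ptpn14 had a match in its window, while F3, Foxf2, Lats2, Myof and Nt5e had none. The E-box CANNTG, bound by myogenic basic helix-loop-helix factors, matched once in the Ankrd1 window, at -111 and clear of the TEAD matches, and not in that of Amotl1, against 66.2% of all windows. The SMAD motif GGCGCC, bound by the BMP-activated SMADs, was in neither window and in 9.6% of all. A match describes letters in these windows and does not show binding.

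The authors deposited a normalized signal whose unit is not named, so levels of different genes are not compared. Read depth is unknown. The listed values summed to 92210 to 93695 per Noggin-deficient library and 100792 and 102783 per wild type library. Judged from the values, the authors' tables appear to list genes picked for differing between these same groups, and how they were picked is not stated. The groups did not overlap for 98.2% of the listed genes, and limma's moderated test called 3836 of the 3913 genes tested, or 98.0%, at an adjusted p under 0.05. A call by itself therefore says nothing particular about Ankrd1 or Amotl1, and the size and direction of their changes carry the description. Nog, the targeted gene, had 0.49, 0.42 and 0.42 in the Noggin-deficient libraries against 2 and 1.99 in the wild type libraries.

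Ankrd1 was higher in the Noggin-deficient muscle. Its values were 7.9, 8.9 and 8.78 in the Noggin-deficient libraries and 4.13 and 4.34 in the wild type libraries. Every Noggin-deficient library lay above both wild type libraries, as for 41.2% of the listed genes, and replicate 1 was the lowest of the Noggin-deficient group. The mean went from 4.24 ± 0.148 (SD, n = 2) to 8.53 ± 0.546 (SD, n = 3), which is 2.01 times the wild type mean. On the log2(value + 0.25) scale, which understates changes the more the lower a gene is, the change was 0.97 (SE 0.060, 95% interval 0.83 to 1.11, limma adjusted p = 5.3e-06). Of all genes tested, 37.9% were called higher. Ankrd1 also passed a test against a 1.5-fold change (limma treat adjusted p = 0.0018), as did 4.22% of all genes in that direction, and it ranked 159th from the top by log2 change.

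Amotl1 was lower in the Noggin-deficient muscle in the deposited values, by far less. It had 31.82, 32.65 and 33.17 in the Noggin-deficient libraries and 40.92 and 40.13 in the wild type libraries. The groups again did not overlap, with the Noggin-deficient libraries lower as for 57.1% of the listed genes, and each was tight. The mean went from 40.5 ± 0.559 (SD, n = 2) to 32.5 ± 0.681 (SD, n = 3), or 0.803 times the wild type mean. The log2 change was -0.31 (SE 0.030, 95% interval -0.38 to -0.25, limma adjusted p = 3.7e-05), where 60.1% of all tested genes were called lower. Against a 1.5-fold change it did not pass (limma treat adjusted p = 1). Of the tested genes 45.3% had a lower log2 change than Amotl1, which puts it near the middle of the listed genes.

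**Figure D1:**
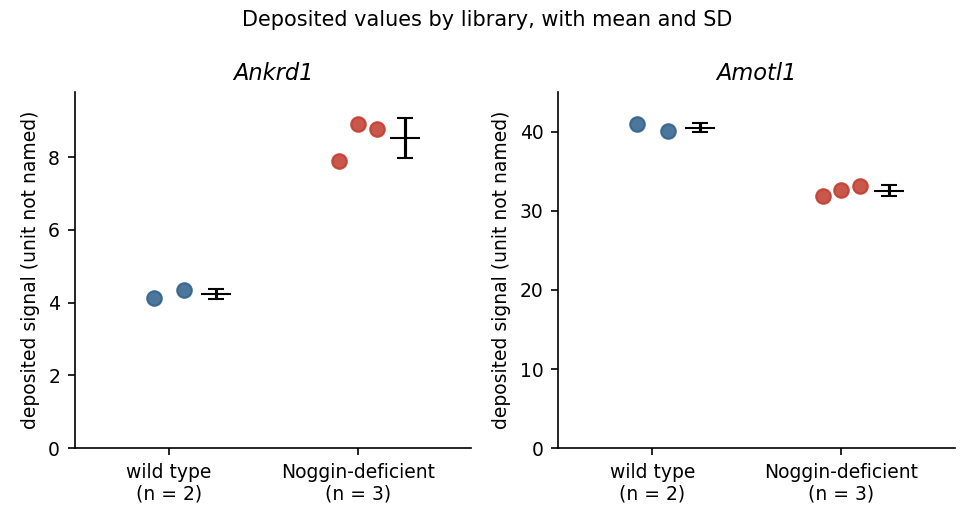
Deposited signal (unit not named) of Ankrd1 and Amotl1 in each library, wild type in blue and Noggin-deficient in red, with the mean and SD of each group beside the points. For Ankrd1 the 3 Noggin-deficient libraries sit between 7.9 and 8.9, above both wild type libraries, and for Amotl1 they sit between 31.82 and 33.17, below both.

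How libraries are scaled bears on Ankrd1 and Amotl1 differently. The median log2 change of all tested genes was -0.28 as deposited, and median-of-ratios scaling, computed from the listed genes, moved it by 0.26. Of the calls 38.7% were higher as deposited, 54.5% with median-of-ratios factors, 50.3% with upper-quartile factors and 48.7% with the length trend removed. Ankrd1 stood 1.25 above the median of all tested genes in the deposited values and with either scaling. Its own change under those scalings was 1.23 and 1.18. Amotl1 stood -0.03 from the median as deposited and -0.02 from it under both scalings. Its change was -0.04 under median-of-ratios scaling, which did not pass (limma adjusted p = 0.24), and -0.09 under upper-quartile scaling (limma adjusted p = 0.032). Under median-of-ratios scaling 38.6% of tested genes were called higher and 32.2% lower, and under upper-quartile scaling 38.5% and 38.1%. The fall of Amotl1 was thus close to the median change of the listed genes. That median depends on how the listed genes split, 37.9% called higher and 60.1% lower as deposited, and is not a shift shared by all genes. Both sets of factors rest on the same listed genes. A call lost under them, here or in the gene lists below, therefore does not show that a gene was unchanged. In the listed order, among tested genes with a known length, the change stepped from 0.34 (Anks6) to -0.21 (Hlcs). Of the 3913 tested genes, 1774 had a lower change than Amotl1 as deposited. Its direction against an unselected background of genes was not analysed here.

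**Figure D2:**
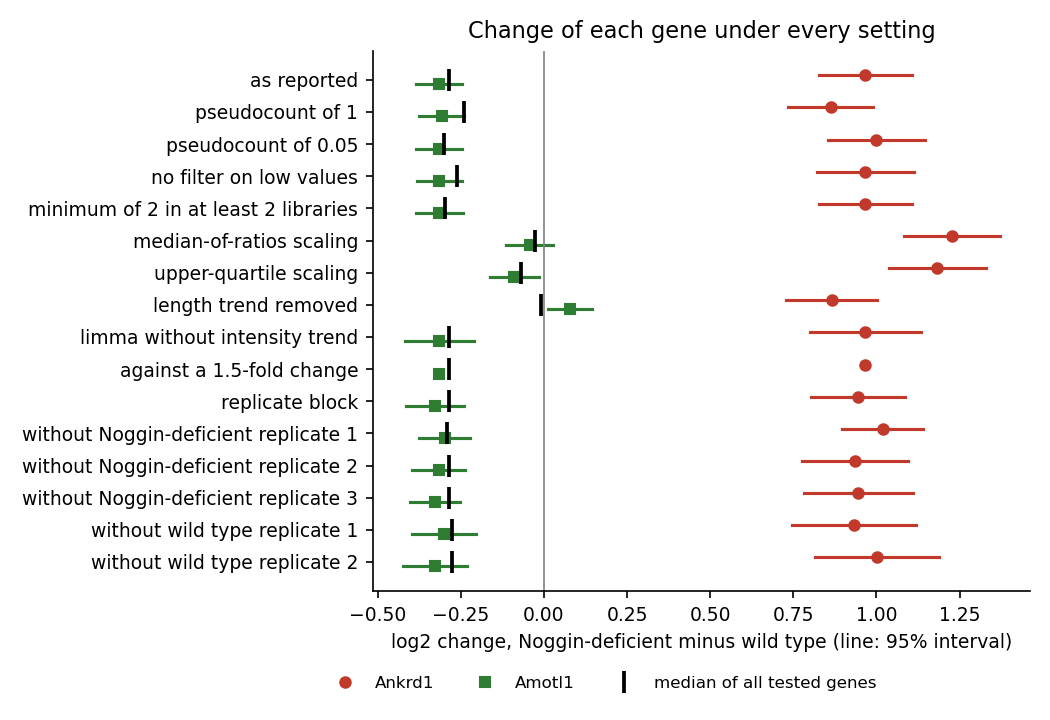
Log2 change of Ankrd1 (red circles) and Amotl1 (green squares) under each processing setting, with 95% intervals where the test gives one and the median of all tested genes as a black tick. Ankrd1 lies between 0.86 and 1.23 throughout, while Amotl1 follows the black tick and crosses 0 once the length trend is removed.

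Transcript length also moved with the change. Ankrd1 has a short transcript (2020 bases for the longest GENCODE M21 transcript) and Amotl1 a long one (8957 bases). Among the 544 tested genes within 1.2-fold of the length of Ankrd1, 57.7% were higher in the Noggin-deficient libraries, with a median log2 change of 0.37, and 94.1% had a lower change than Ankrd1. Among the 292 genes of a length like that of Amotl1, 6.85% were higher and the median was -0.35, and 61.0% had a lower change than Amotl1. After removal of a smooth trend on length, Ankrd1 rose by 0.87 (limma adjusted p = 2.1e-06). The change of Amotl1 turned to 0.08 (limma adjusted p = 0.037). The trend was fitted to the listed genes, most of which fell at the length of Amotl1. A gene that fell less than the trend therefore comes out above 0, though its deposited values were lower. The trend was subtracted as a fixed value, so both p-values leave out the error of the trend itself. At the length of Ankrd1 the trend was 0.10, while genes of like length had the median of 0.37 given above. With the trend removed, 35.1% of tested genes were called higher and 37.1% lower. The part that length plays in the deposited values was not tested.

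**Figure D3:**
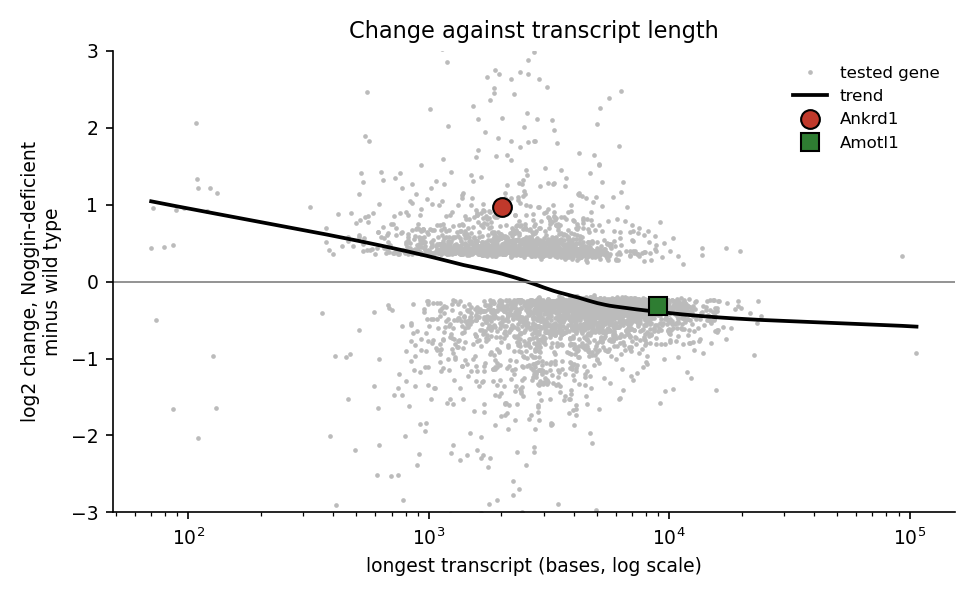
Log2 change (Noggin-deficient minus wild type) of 3736 tested genes with a known length against the length of their longest transcript on a log scale, with the smooth trend as a black line and 28 genes beyond the vertical limits of 3 not shown. Ankrd1 lies well above the trend, which is 0.10 at its length, and Amotl1 close to it, where the trend is -0.39.

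A comparison within each library is free of library scaling. The log2 value of Ankrd1 minus that of Amotl1 was -1.98, -1.85 and -1.89 in the Noggin-deficient libraries and -3.23 and -3.14 in the wild type libraries. The Noggin-deficient libraries were all higher, by 1.28 on average, which is a 2.43-fold higher ratio of Ankrd1 to Amotl1. This difference is free of scaling but not of transcript length, and with the length trend removed it was 0.79, or 1.73-fold. The exact permutation test over the 5 libraries gave p = 0.1 (two-sided), the smallest that 3 samples against 2 allow.

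The same was done against skeletal muscle, since the muscle share of the dissected tissue can differ. Of 12 skeletal muscle markers, 8 had values (Actn2, Actn3, Ckm, Mybpc1, Myh3, Tnnt3, Tnni2 and Myf6). Of these, 7 fell and Actn3 rose, beside 60.1% of all tested genes called lower and 37.9% higher. Their sums ran from 1878 to 1981 in the Noggin-deficient and 2837 to 2881 in the wild type libraries. In bulk tissue, fewer muscle cells and less RNA of these genes per cell cannot be told apart. Relative to the mean log2 value of those 8 markers, Ankrd1 was higher by 1.51, or 2.84-fold, and the groups did not overlap. Amotl1 relative to the same markers had -1.92, -1.92 and -1.83 in the Noggin-deficient libraries and -2.08 and -2.15 in the wild type libraries. It was thus 0.23 higher on the log2 scale, the opposite sign to its deposited change. The 8 markers are those found among genes that appear picked for differing between these same groups, and 7 of them fell. Any gene that fell less than their mean is higher relative to them. The sign alone therefore says nothing about Amotl1 per muscle cell. With the length trend removed, the differences were 1.44 for Ankrd1 and 0.65 for Amotl1. Each exact permutation test gave p = 0.1 (two-sided), again the smallest possible.

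**Figure D4:**
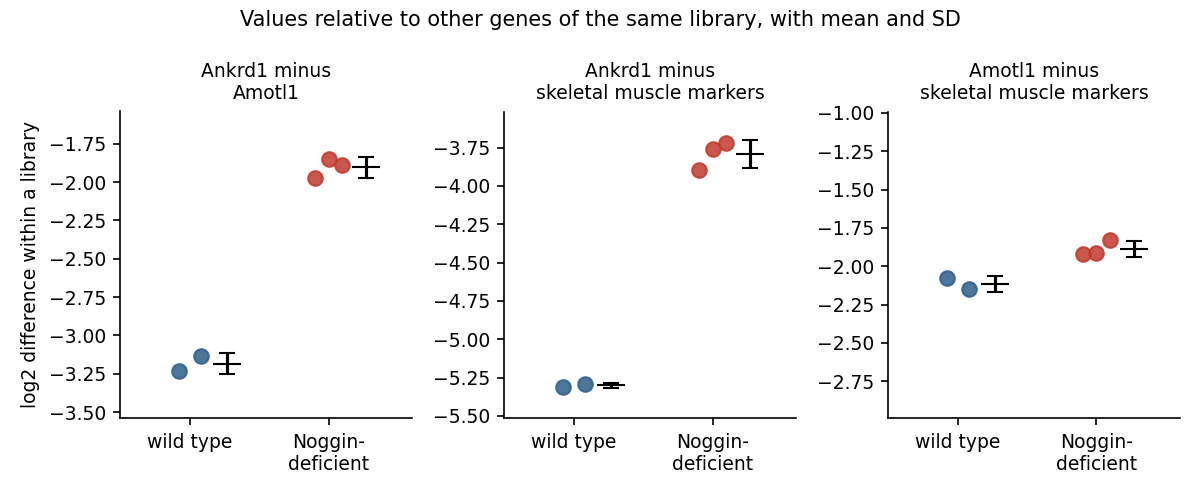
Log2 difference within each library between Ankrd1 and Amotl1 (left), Ankrd1 and the mean of 8 skeletal muscle markers (middle), and Amotl1 and those markers (right), with group mean and SD and vertical axes of equal span. The Noggin-deficient libraries lie higher in all panels, by 1.28, 1.51 and 0.23.

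Of the other YAP and TEAD targets with values, only Foxf2, a low gene, rose, and 6 fell. Of 22 genes on the target list, 8 had values, Ankrd1 included. With Ankrd1 counted, 2 rose and 6 fell, with a median log2 change of -0.35 against -0.28 over all tested genes. Of all tested genes 37.9% were called higher and 60.1% lower. Median-of-ratios scaling left 2 rising, 2 falling and 4 without a call, beside 38.6% of all tested genes called higher and 32.2% lower. Median-of-ratios scaling brought the list median to -0.09, and removing the length trend brought it to -0.07. Foxf2, a forkhead factor, rose beside Ankrd1, with 0.61, 0.76 and 0.72 in the Noggin-deficient libraries and 0.35 and 0.39 in the wild type libraries. Its mean was 1.88 times the wild type mean, and its log2 change was 0.61, or 0.31 and 0.83 with pseudocounts of 1 and 0.05, since its values lie near the pseudocount. F3, which encodes tissue factor, fell most, with 4.9, 4.67 and 4.61 against 6.89 and 7.5, and a log2 change of -0.58. Myof (myoferlin, a membrane repair and fusion protein) had -0.48, the kinase gene Nuak2 -0.42, and the phosphatase gene Ptpn14, whose protein binds YAP, -0.36. Nt5e, of the ectonucleotidase CD73, had -0.34 and the kinase gene Lats2, a feedback target, -0.30. Under median-of-ratios scaling, whose factors rest on the listed genes, only F3 and Myof of these 6 still passed. The most used targets besides Ankrd1, Ctgf and Cyr61, were on the list, but no values were found for them, so they were not analysed.

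Genes of the Hippo pathway itself went both ways. Of 38 listed genes 16 had values and 15 were tested, of which 3 rose and 12 fell (median -0.36), beside 37.9% and 60.1% of all tested genes. Under median-of-ratios scaling 3 rose, 6 fell and 6 did not pass (median -0.10, beside 38.6% of all tested genes called higher and 32.2% lower). After removal of the length trend 5 were called above the trend, 4 below it and 6 did not pass (median -0.00, beside 35.1% and 37.1%). The TEAD genes parted. Tead1 had 14.61, 14.11 and 14 in the Noggin-deficient libraries against 23.13 and 22.39 in the wild type libraries, a log2 change of -0.67. Tead2 had 47.76, 49.71 and 45.67 against 36.71 and 37.31, a log2 change of 0.36. Tead4, a TEAD gene of differentiating muscle, had 7.13, 7.98 and 7.34 against 9.98 and 9.75, and a log2 change of -0.39. Tead1 stayed lower and Tead2 higher under both scalings, and likewise with the length trend removed, at -0.26 and 0.50. Tead4 was at -0.12 under median-of-ratios scaling, which did not pass (limma adjusted p = 0.071).

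Wwtr1, the gene of TAZ, had 24.41, 23.62 and 24.32 in the Noggin-deficient and 28.7 and 29.1 in the wild type libraries. Its log2 change of -0.26, like that of Amotl1, was close to the median of all tested genes, which lies among the falling genes. Under median-of-ratios scaling the change of Wwtr1 was 0.01 (limma adjusted p = 0.76). The kinase gene Lats1 had -0.44, and Taok1, a kinase upstream of MST, -0.41. The adaptor genes Mob1a, Frmd6 and Wwc1 had -0.62, -0.39 and -0.26, that of Mob1a, a low gene, being -0.37 with a pseudocount of 1. The atypical cadherin genes Fat1 and Fat4 had -0.37 and -0.25, which turned to 0.09 and 0.21 after removal of the length trend. Wtip, a LIM protein that can bind LATS kinases, rose by 0.36 and Map4k1, a kinase gene of blood cells, by 0.40, both also under each scaling. Mobkl1a, an older name of Mob1b, was below the minimum for testing, with a mean of 0.010 against 0.035. Yap1 itself was on the list, but no values were found for it, so it was not analysed.

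Transcripts of proteins that bind or modify angiomotins, like Amotl1, fell by about the median change of the tested genes. That median lies among the falling genes of the listed set, so closeness to it does not show that a gene was unchanged. Of 18 listed genes 6 had values, Amotl1 included, and all 6 fell, with a median of -0.27 beside -0.28 over all tested genes, of which 60.1% fell. Median-of-ratios scaling left 0 of the 6 called in limma's test (0 at an unadjusted p under 0.05) and their median at 0.00. Of all tested genes, that scaling called 38.6% higher and 32.2% lower. After removal of the length trend 3 of the 6, Amotl1, Mpdz and Tnks2, were called above the trend and the other 3 did not pass. That is, they fell less than the listed genes of like length, and they were still lower in the deposited values. All tested genes then had 35.1% called higher and 37.1% lower. Mpdz, a junctional scaffold with many PDZ domains, had a log2 change of -0.27. Itch, a ubiquitin ligase, had -0.26. The tankyrase genes Tnks and Tnks2, whose products mark angiomotins for degradation, had -0.32 and -0.24. The other angiomotins, Amot and Amotl2, were on the list, but no values were found for them, so they were not analysed.

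Most listed sarcomere neighbours of Ankrd1 were lower, while its paralog Ankrd2 was higher. Of 15 listed genes 10 had values, of which 2 rose and 8 fell, with a median of -0.51, beside 37.9% and 60.1% of all tested genes and their median of -0.28. Median-of-ratios scaling brought it to -0.25, and removing the length trend to -0.35. Ankrd2, of the muscle ankyrin repeat family, was the other gene that rose. Its values were 4.05, 4.52 and 3.79 in the Noggin-deficient libraries and 2.7 and 2.54 in the wild type libraries, a log2 change of 0.60 (SE 0.079), and 0.32 after removal of the length trend. Ttn, of titin, on which both proteins sit, had 7.86, 8.12 and 8.1 in the Noggin-deficient libraries and 15.39 and 15.7 in the wild type libraries, a log2 change of -0.93, and -0.35 once the length trend was removed. Mypn, of myopalladin, a partner of Ankrd1 at the sarcomere, had 6.42, 6.85 and 6.38 against 11.81 and 11.21, a log2 change of -0.79. Fhl1, a LIM protein that also binds titin, had a wild type mean of 130.4 ± 3.52 (SD, n = 2) and a Noggin-deficient mean of 60.3 ± 1.74 (SD, n = 3), and its log2 change was -1.11. Csrp3, a LIM protein of the Z-disc, had -0.58, the calcium store gene Casq2 -0.58, the titin-bound protease gene Capn3 -0.45, the intermediate filament gene Des -0.43 and Trim55, of a titin-bound ubiquitin ligase, -0.29. All 8 stayed below 0 under both scalings and after removal of the length trend, Trim55 being the 1 that did not pass under the scalings.

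In the deposited values, genes known to be induced in stretched, damaged or denervated muscle rose and fell in shares near those of all tested genes. Of 24 listed genes 11 had values, of which 4 rose (Ankrd1, Ankrd2, Mt1 and Mt2) and 7 fell, beside 37.9% and 60.1% of all tested genes. Their median was -0.48, or -0.21 under median-of-ratios scaling. Under that scaling again 4 rose and 7 fell, beside 38.6% and 32.2% of all tested genes, so a larger share fell than of all genes. After removal of the length trend 3 rose, 6 fell and 2 did not pass, beside 35.1% and 37.1%. The metallothionein genes Mt2 and Mt1 rose by 0.61 and 0.42, and by 0.08 (limma adjusted p = 0.069) and 0.12 after removal of the length trend. Hspb7, a small heat shock protein gene of striated muscle, fell, with 18.4, 18.37 and 16.86 in the Noggin-deficient libraries and 33.55 and 32.38 in the wild type libraries, a log2 change of -0.88. Xirp1, of an actin-binding repair protein, had -0.68. Of 17 genes driven by serum response factor and its actin-sensing cofactors, 5 had values, of which Tagln rose by 0.36 and 4 fell. The shares over all tested genes were again 37.9% and 60.1%. Median-of-ratios scaling left Tagln rising, Cnn1 falling and the other 3 without a call, beside 38.6% of all tested genes called higher and 32.2% lower. Cnn1 (calponin) had -0.80, Srf itself -0.37, Tpm1 -0.30 and Vcl (vinculin) -0.26, the last turning to 0.01 with median-of-ratios factors and to 0.03 without the length trend.

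**Figure D5:**
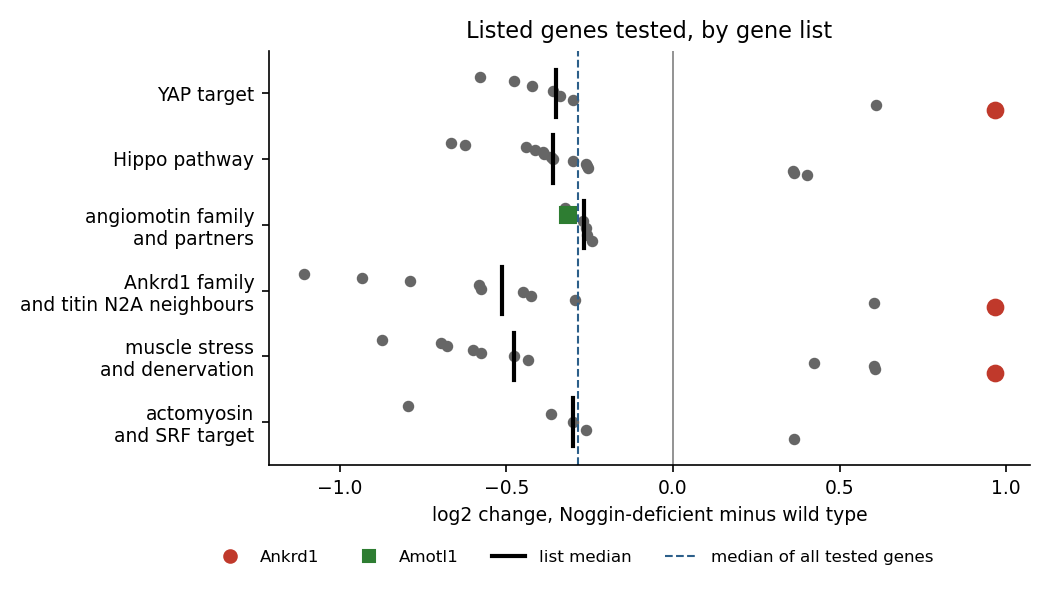
Log2 change (Noggin-deficient minus wild type) of every tested member of 6 gene lists, 1 point a gene, with list medians as black bars and the median of all tested genes, -0.28, as a dashed line. Ankrd1 (red) is the highest point of each list that holds it, and Amotl1 (green square) lies beside the dashed line.

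Markers of other cell types that could hold these transcripts moved as well. Ankrd1 is abundant in heart muscle. Of 12 heart markers 4 had values, with sums from 74.0 to 74.8 in the Noggin-deficient and from 112.1 to 115.7 in the wild type libraries. The heart genes Myl3, Myh6 and Myh7, which slow or fetal skeletal fibres can also express, fell, while the heart factor gene Tbx20 had 0.04 in each Noggin-deficient library, 0.01 in 1 wild type library and was listed at 0 in the other. Amotl1 is expressed in endothelium and epithelia. The 3 of 10 endothelial markers with values (Eng, Cldn5 and Egfl7) rose, with sums from 138.7 to 141.8 against 94.2 and 97.0, and the 11 of 12 epidermal markers with values fell, with sums from 942.5 to 975.5 against 2420 and 2455. The largest differences were in liver markers, of which all 10 rose, with sums from 118.6 to 119.3 against 8.84 and 9.02, Alb having 0.39 and 0.37 in the wild type and 39.11 to 40.24 in the Noggin-deficient libraries. Of them Ahsg, Fgb, Fga and Serpina1a were listed at 0 in at least 1 wild type library. The 5 of 10 erythroid markers with values rose, with sums from 219.4 to 225.7 against 94.0 and 98.4. Of 10 smooth muscle and pericyte markers 4 had values, of which Tagln rose and Cnn1, Cspg4 and Ndufa4l2 fell, with sums from 75.9 to 80.0 against 100.8 and 102.6. Over all tested genes 37.9% rose and 60.1% fell. The 3 of 10 fibroblast and tendon markers with values fell. The part of these cell types in the changes of Ankrd1 and Amotl1 was not tested.

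The genes with the most similar profiles were sought by Euclidean distance between centred log2 values over the 5 libraries, among 3194 candidates. Nearest to Ankrd1 were Kcne3, a potassium channel subunit gene (distance 0.092), Tmem178 (0.10), the transcript AK047830_gene (0.12), Apba2, a neuronal adaptor gene (0.12), and Hmox1, of the stress-induced heme oxygenase (0.13). Hmox1 had 34.41, 37.34 and 34.79 in the Noggin-deficient libraries against 18.74 and 18.27 in the wild type libraries. Nearest to Amotl1 were the forkhead factor gene Foxk1 (0.0080), Mocs1 (0.011), the lipid transfer gene Osbpl8 (0.017), the phosphodiesterase gene Pde8a (0.021) and Nr3c1, of the glucocorticoid receptor (0.026). Within a distance of 0.2, a limit chosen after the values were seen, lay 17 genes for Ankrd1 and 1067 for Amotl1, or 33.4% of the candidates.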

How the data were processed

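RNA was sequenced from 5 forelimb muscle samples, 3 Noggin-deficient and 2 wild type, placed in groups by genotype. Libraries, per the labels' protocols, were stranded mRNA libraries sequenced on an Illumina instrument. The authors deposited a normalized signal per gene in decimals. Neither headers nor labels name the unit. STAR 2.4.2a, DESeq2 and mm9 appear in the submitters' processing notes without a stated role. Read depth is unknown, so no counting interval is given.

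Genes reaching 0.5 in 2 or more libraries entered limma 3.58.1 (R 4.3.3), with an intensity trend, on log2(value + 0.25). Changes are Noggin-deficient minus wild type, with Benjamini-Hochberg adjustment over all 3913 genes tested. The scripts were tested on simulated data. Transcript lengths were the longest GENCODE M21 transcript per symbol, found for 4460 of 4743 genes. Promoter sequences came from RefSeq. The design was written for counts or normalized values, and the latter applied.

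The 2 genes and the gene lists were chosen with earlier results of these data known. Named were all members with values of the YAP target, Hippo, angiomotin and Ankrd1 family lists, up to 6 by smallest p of each other list, and the 5 nearest profiles of each gene with a mean of at least 1, predicted-gene identifiers left out. The comparison with skeletal muscle markers, and removal of the length trend from within-library differences, were added after the data were seen. Alternatives were other pseudocounts, filters, scalings, removal of a loess trend on length, no intensity trend, a test against a 1.5-fold change, a replicate block and leaving out each library.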

Additional observations from a re-analysis of the deposited data

How the results depend on the processing

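Ankrd1 stayed higher and past the threshold under all alternatives run, with log2 changes from 0.86 (pseudocount of 1) to 1.23 (median-of-ratios scaling), and from 0.93 to 1.02 when 1 library was left out. Amotl1 ranged from -0.33 to -0.30 when 1 library was left out. It lost its call under median-of-ratios scaling (-0.043) and against a 1.5-fold change (-0.31), and reversed to 0.078 with the length trend removed. The genes called numbered 3836, and 569 against a 1.5-fold change, which asks for more by construction. The other settings gave 2698 to 4522 calls. Under that scaling Wwtr1 (0.012), Wwc1 (0.0010), Fat4 (0.011), Itch (0.0050), Tnks2 (0.029) and Vcl (0.0072) also changed sign, none with a call. After removal of the length trend Ptpn14 (0.057), Taok1 (0.024), Fat1 (0.092), Fat4 (0.21), Mpdz (0.095), Itch (0.035), Tnks (0.072), Tnks2 (0.098), Vcl (0.031), Foxk1 (0.046), Osbpl8 (0.034) and Nr3c1 (0.028) did, with Fat1, Fat4, Mpdz and Tnks2 called. The cause was not tested. Leaving out a wild type library leaves 1, assumed to vary like the other group. Ankrd1 relative to Amotl1 ranged from 1.23 to 1.33 when 1 library was left out, was 1.17 and 1.32 with pseudocounts of 1 and 0.05, and 0.79 with the length trend removed, a setting added for it after the data were seen. Replicate numbers 1 and 2 occur in both groups, but nothing says that they pair samples. Deviations from the group mean correlated at -0.13 and -0.06 within a number. With 2 wild type libraries these deviations mirror each other, so the same values return with the opposite sign across numbers. The correlations therefore cannot decide whether samples are paired. With the replicate block over those 4 libraries Ankrd1 changed by 0.95, Amotl1 by -0.33, and 3758 genes were called. The number of libraries and the unknown depth limit the precision.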

Other observations

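Within the Noggin-deficient group Ankrd1 varied more than most genes of its level. Its coefficient of variation was 6.40% over the 3 libraries, against a median of 3.72% for the 852 tested genes within 1.5-fold of its mean, and 81.2% of those genes varied less. For Amotl1 it was 2.09%, against a median of 2.31% for 235 genes of like level.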
